A study of Mus musculus with 4 samples.

Results

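The genes described here are 36 genes of the extracellular matrix and of hepatic stellate cells, taken from the 28090 gene names on a whole-genome mouse array. They comprised 12 collagen genes, 15 genes of other matrix proteins, matrix enzymes and their inhibitors, and 9 stellate cell markers. Every non-control probe that carried one of these gene names was used, which gave 66 of the 41174 probes on the array. Probes were taken by gene name alone.

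Liver RNA of 4 female BALBc mice was hybridised to one-colour (Cy3) Agilent arrays of 60-base probes, 1 array per mouse. The study, titled for Lactobacillus sp. (ostrich), compared 2 mice of a group named LB1 with 2 control mice, all killed 20 days after inoculation. The labels give neither what LB1 stands for nor what the control mice received, and no age or genotype is given for either group. Each slide carried replicate 1 or replicate 2 of both groups.

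Hepatic stellate cells lie between the sinusoidal endothelium and the hepatocytes, store vitamin A as retinyl esters, and become contractile, matrix-producing myofibroblasts when the liver is injured. Fibrillar collagens are secreted as triple helices in which glycine recurs at regular intervals, and they are cross-linked outside the cell by lysyl oxidases. Matrix metalloproteinases degrade the fibres, and tissue inhibitors of metalloproteinases (TIMPs) block these enzymes. Portal fibroblasts, vascular smooth muscle and the mesothelium on the liver surface also make matrix, so several of the 36 genes are not particular to stellate cells.

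The signal of each probe is given on a log2 scale relative to its array's 75th percentile, so that 0 is the level of that percentile and differences are LB1 minus control. That percentile was 410.9 and 414.7 intensity units on the control arrays and 146.9 and 80.8 on the LB1 arrays. The 15174 probes that were below background on all 4 arrays had medians of -7.17 and -7.19 on the control arrays and -5.46 and -5.21 on the LB1 arrays on the scaled log2 values. A dim probe therefore has a higher scaled floor on the LB1 arrays, and the lowest scaled signal well above background was -5.34 and -5.40 on the control arrays and -3.64 and -3.34 on the LB1 arrays. How far this floor enters the differences of dim probes was not tested.

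A probe was tested where control livers, LB1 livers or both had it well above background on each of their arrays. This held for 46 of the 66 probes, and they covered 34 of the 36 genes. Col6a3, a chain of collagen VI, and Lox, the founding lysyl oxidase, had no tested probe. Each gene was represented by its brightest tested probe. Across the array, 21.7% of the 15817 tested genes passed as higher in LB1 livers and 9.79% as lower, at an adjusted p under 0.05 from limma with Benjamini-Hochberg adjustment over all tested probes. Of the 34 matrix and stellate cell genes, 9 (26.5%) were higher and 3 were lower, and 22 did not pass. The 3 lower genes were tested through their control signal alone, and 1 higher gene, Fbln1, through its LB1 signal alone. The other 8 called genes were well above background on all 4 arrays. Both LB1 arrays lay above both control arrays for 14 of the 34 genes and below them for 11, against 49.2% and 27.6% of all tested genes. The count depended on the processing. It was 18 higher and 7 lower with normexp background correction (46.1% and 20.6% of all genes), 5 and 4 with quantile normalization (12.1% and 13.1%), and 5 and 10 with arrays scaled to their median (7.88% and 25.7%). With 2 arrays against 2, an exact two-sided permutation test of a single gene cannot give a p below 0.333.

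**Figure D1:**
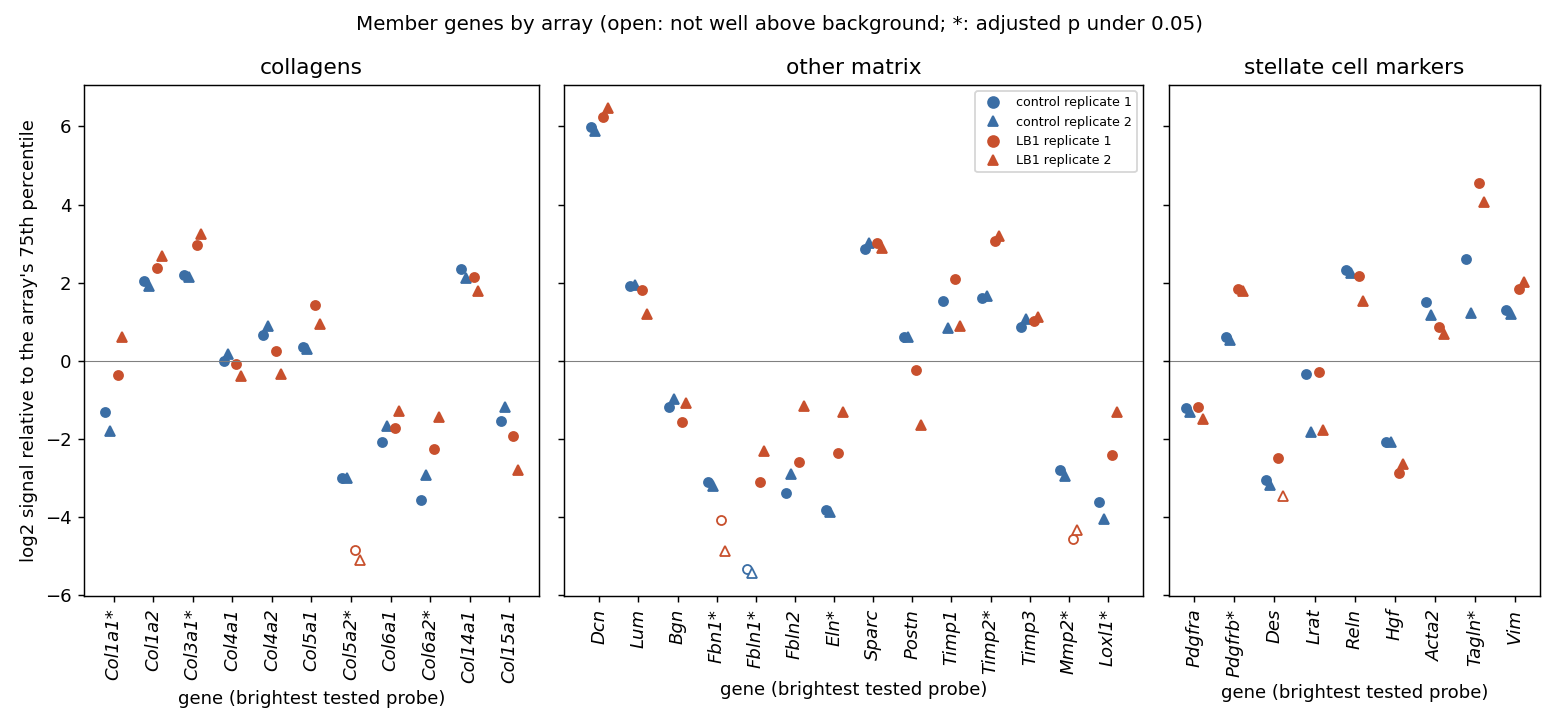
Signal of the 34 tested genes on each of the 4 arrays, as log2 of the processed signal relative to the array's 75th percentile, 1 panel for each group of genes. Circles are replicate 1 and triangles replicate 2 of control (blue) and LB1 (red) livers; the arrays of a group lie close together and the groups apart for Pdgfrb and Timp2, and the LB1 values of Col5a2, Fbn1 and Mmp2 are open because they were not well above background.

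Several results turn on which probe of a gene was read. Shown first, 5′ to 3′, is 1 tested probe each of Col5a1, Col1a1, Acta2, Tagln and Hgf, which had more than 1. The Col5a1 probe is in the triple helix: its capitals mark glycine codons (GGN), which recur every 9 bases. Only 3 of the 41174 probes (0.00729%) hold at least 6 such codons in this register on the probe's own strand, and this one is the only such probe among the 66. Its match spans 2424 bases of the genome, so it crosses at least 1 intron. The Acta2 probe likewise spans 3255 bases, while the Col1a1, Tagln and Hgf probes each match 1 unbroken stretch. On mm9, the build of the deposited files, they lie at chr2:27842243-27844666 (Col5a1, plus strand), chr11:94812052-94812111 (Col1a1, plus strand), chr19:34322995-34326249 (Acta2, minus strand), chr9:45738916-45738975 (Tagln, minus strand) and chr5:16121326-16121385 (Hgf, plus strand).
Col5a1: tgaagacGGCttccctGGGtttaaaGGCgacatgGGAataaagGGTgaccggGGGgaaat
Col1a1: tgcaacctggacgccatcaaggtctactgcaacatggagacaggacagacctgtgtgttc
Acta2: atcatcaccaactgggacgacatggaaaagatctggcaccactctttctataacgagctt
Tagln: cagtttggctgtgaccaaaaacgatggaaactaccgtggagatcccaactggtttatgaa
Hgf: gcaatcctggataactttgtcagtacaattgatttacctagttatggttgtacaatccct

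Among the collagens, 3 of 11 tested genes (27.3%) were higher in LB1 livers and 1 was lower. The 3 were Col1a1, which encodes the main chain of fibrillar collagen I, Col3a1, the chain of collagen III, and Col6a2, a chain of the beaded-filament collagen VI. The median difference of the 11 genes was 0.38 against 0.29 for all tested genes. It was 0.43 with normexp background correction and 0.22 with quantile normalization, and turned to -0.26 when arrays were scaled to their median, where the median of all genes was -0.34.

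The brightest Col1a1 probe read -1.31 and -1.81 on the control arrays and -0.35 and 0.60 on the LB1 arrays. The groups did not overlap, and the LB1 mice differed more from each other than the control mice did. The difference was 1.68 (SE 0.40, n = 2 per group, limma adjusted p = 0.0357). The dimmer Col1a1 probe, whose sequence is shown above, read -4.41 and -4.62 on the control arrays and -2.51 and -2.50 on the LB1 arrays, a difference of 2.01 (SE 0.22, limma adjusted p = 0.0201). Both probes of this gene thus separated the groups in the same direction on the scaled values. Before scaling, the dimmer probe read 19.4 and 16.8 intensity units on the control arrays and 25.7 and 14.3 on the LB1 arrays, which overlap. The part of the higher scaled floor of the LB1 arrays in its difference was not tested.

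Col3a1 read 2.19 and 2.13 in control livers and 2.97 and 3.25 in LB1 livers. The groups were apart by more than their spread, with a difference of 0.95 (SE 0.23, limma adjusted p = 0.0358), but with slide as a block the adjusted p was 0.051 and the difference fell to 0.31 when arrays were scaled to their median (adjusted p = 0.579). Col1a2, whose product joins that of Col1a1 in collagen I, read 2.04 and 1.92 in control livers and 2.36 and 2.68 in LB1 livers. Its groups did not overlap either, but its difference of 0.54 (SE 0.23) did not pass (limma adjusted p = 0.126).

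Collagen V, which nucleates collagen I fibrils, gave opposite results for its chains. Col5a1 was measured by 2 tested probes. The brighter read 0.36 and 0.29 in control livers and 1.43 and 0.95 in LB1 livers, a difference of 0.87 that did not pass (SE 0.26, limma adjusted p = 0.0571), and the triple-helix probe read -3.82 and -4.45 against -1.33 and -1.49, a difference of 2.72 that did (SE 0.29, limma adjusted p = 0.0201). The groups did not overlap at either probe. Col5a2 read -3.01 and -3.01 in control livers and -4.84 and -5.09 in LB1 livers, where neither array was well above background. It was at least 1.40-fold lower in LB1 livers (limma adjusted p = 0.0201), but the direction turned under other processing: the difference was 0.94 with normexp correction (adjusted p = 0.0013) and 0.58 in the deposited table of mean intensities (adjusted p = 0.0291).

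Col6a2 read -3.57 and -2.93 in control livers and -2.26 and -1.43 in LB1 livers, a difference of 1.40 at the edge of the threshold (SE 0.39, limma adjusted p = 0.0496). Its other tested probe read -4.54 and -4.77 against -4.32 and -5.64, with overlapping groups and neither LB1 array well above background, so that no direction can be read from it. The mean of both probes gave 0.54 (adjusted p = 0.117), and the call on the brightest probe was also absent with quantile normalization (adjusted p = 0.154) and with array-median scaling (0.157). Col6a1, whose product assembles with that of Col6a2 and whose gene lies 85.2 kb from it on chromosome 10 of GRCm38.p6, had a difference of 0.38 (SE 0.28, limma adjusted p = 0.324).

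The collagen IV genes of basement membranes, Col4a1 and Col4a2, are head-to-head neighbours on chromosome 8 and had negative differences at all 4 of their tested probes with 75th percentile scaling, of which 1, the dimmer Col4a2 probe, turned with normexp correction. The brightest probes gave -0.32 (SE 0.23, limma adjusted p = 0.318) for Col4a1 and -0.81 (SE 0.29, limma adjusted p = 0.0851) for Col4a2. The dimmer Col4a2 probe read -1.15 and -0.89 in control livers and -2.03 and -2.94 in LB1 livers, and passed as lower (difference -1.47, SE 0.36, limma adjusted p = 0.0384). Only 1 LB1 array was well above background there, and the call was absent with normexp correction (0.05, adjusted p = 0.706) and in the deposited table of mean intensities (-0.28, adjusted p = 0.208). Col14a1 and Col15a1, which bind fibrils and basement membranes, had differences of -0.28 and -1.0 that did not pass (limma adjusted p = 0.401 and 0.0867). None of the 4 called collagens passed with 1 control array left. Hardly any probe of the whole array passed in those fits, so this loss is not particular to the collagens. Without LB1 replicate 2, Col1a1, Col3a1 and Col6a2 missed the threshold and Col5a1 passed. Without LB1 replicate 1, Col4a2 and Col15a1 passed as lower.

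Among the other matrix genes, 4 of 14 tested (28.6%) were higher and 2 were lower. The 4 included the elastic fibre genes Eln, which encodes elastin, and Fbln1, which encodes the fibre-associated glycoprotein fibulin 1, together with the elastin cross-linking enzyme gene Loxl1 and the metalloproteinase inhibitor gene Timp2. The median difference of the group was 0.21, below the 0.29 of all genes. It was 0.57 with normexp correction and 0.05 with quantile normalization, and turned to -0.43 with array-median scaling.

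Eln read -3.83 and -3.88 in control livers and -2.36 and -1.32 in LB1 livers, a difference of 2.02 (SE 0.39, limma adjusted p = 0.0259). Loxl1 read -3.61 and -4.05 in control livers and -2.42 and -1.31 in LB1 livers, a difference of 1.96 (SE 0.43, limma adjusted p = 0.0312). For both genes the groups did not overlap on the scaled values and LB1 replicate 2 was the highest array. Before scaling, Eln read 29.0 and 28.1 intensity units in control livers and 28.6 and 32.4 in LB1 livers. Loxl1 read 33.7 and 25.0 against 27.4 and 32.7, so the unscaled groups overlapped for both genes. The part of the higher scaled floor of the LB1 arrays in these differences was not tested. With quantile normalization neither passed (adjusted p = 0.0706 for Eln and 0.0855 for Loxl1).

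Fbln1 was not well above background in either control liver, where it read -5.32 and -5.43, and read -3.10 and -2.31 in LB1 livers. On these scaled values it was at least 6.32-fold higher in LB1 livers (limma adjusted p = 0.0211). Its difference was 2.67 there, 1.74 with normexp correction, 1.86 with quantile normalization and 2.04 with array-median scaling. In the deposited table of mean intensities it was 1.75. Fbln1 passed in each of these settings, but the bound holds for the scaled values only. A further probe of the gene, also not well above background in control livers, was at least 6.73-fold higher on the scaled values (limma adjusted p = 0.0266). Its difference was 3.39 there, 1.86 with normexp correction, 2.76 with array-median scaling and 1.86 in the deposited table. With quantile normalization it was 2.39 and did not pass (adjusted p = 0.0652). Since Fbln1 was tested through its LB1 signal alone, it could enter the test only as a higher gene. Fbln2, the related fibulin 2 gene, had a difference of 1.27 that did not pass (SE 0.52, limma adjusted p = 0.115).

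Timp2 read 1.60 and 1.65 in control livers and 3.07 and 3.18 in LB1 livers. The arrays of a group lay close together and the groups far apart, with a difference of 1.50 (SE 0.21, limma adjusted p = 0.0212), and of 1.47 and 1.53 within the slides. It was 0.87 with array-median scaling and did not pass there (adjusted p = 0.0876). The inhibitor genes Timp1 and Timp3 had differences of 0.31 (SE 0.49, limma adjusted p = 0.638) and 0.10 (SE 0.22, limma adjusted p = 0.734), with overlapping groups.

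Mmp2, the gelatinase that TIMP2 binds, read -2.79 and -2.94 in control livers and -4.57 and -4.33 in LB1 livers. Fbn1, which encodes the microfibril scaffold fibrillin 1, read -3.11 and -3.21 in control livers and -4.09 and -4.87 in LB1 livers. No LB1 array was well above background for either gene. Mmp2 was at least 1.54-fold lower (limma adjusted p = 0.0212) and Fbn1 at least 1.25-fold lower (limma adjusted p = 0.0376) in LB1 livers. Like Col5a2, both turned to higher with normexp correction (0.92, adjusted p = 0.0018, and 1.08, adjusted p = 0.0009) and in the deposited table of mean intensities (0.52, adjusted p = 0.0462, and 0.68, adjusted p = 0.0146). All 3 genes called lower were therefore ones whose LB1 signal was at background, and they were tested through their control signal alone. A fit restricted to genes well above background on all 4 arrays, which these 3 genes and Fbln1 could not enter, held 29 of the 34 genes and called 10 higher and 2 lower, against 31.2% and 13.2% of 13200 genes. There Postn (adjusted p = 0.0376) and Hgf (adjusted p = 0.0427) passed as lower, and Col5a1 (0.0328) and Vim (0.0404) passed as higher.

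The small proteoglycan genes did not pass. Dcn, the decorin gene, had a difference of 0.43 (SE 0.22, limma adjusted p = 0.183), and its neighbour Lum, the lumican gene 47.3 kb away on chromosome 10, had one of -0.41 (SE 0.28, limma adjusted p = 0.299). Bgn, the biglycan gene, was at -0.25 (SE 0.26, limma adjusted p = 0.482). Sparc, which encodes a collagen-binding glycoprotein, was at 0.02 (SE 0.22, limma adjusted p = 0.940) with overlapping groups at its brightest probe. That probe turned to -0.43 with normexp correction (adjusted p = 0.0275). The other tested Sparc probe read 1.99 and 1.85 in control livers and 2.54 and 2.57 in LB1 livers, without overlap. Its difference of 0.64 did not pass (SE 0.21, limma adjusted p = 0.0714), and was 0.16 with normexp correction (adjusted p = 0.254). Postn, which encodes periostin, read 0.62 and 0.60 in control livers and -0.23 and -1.66 in LB1 livers, and its difference of -1.55 did not pass (SE 0.50, limma adjusted p = 0.0672). With 1 control array left, none of the 6 called matrix genes passed, and hardly any probe of the whole array did. Without LB1 replicate 1, Fbln2 passed as higher and Postn and Lum as lower.

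**Figure D2:**
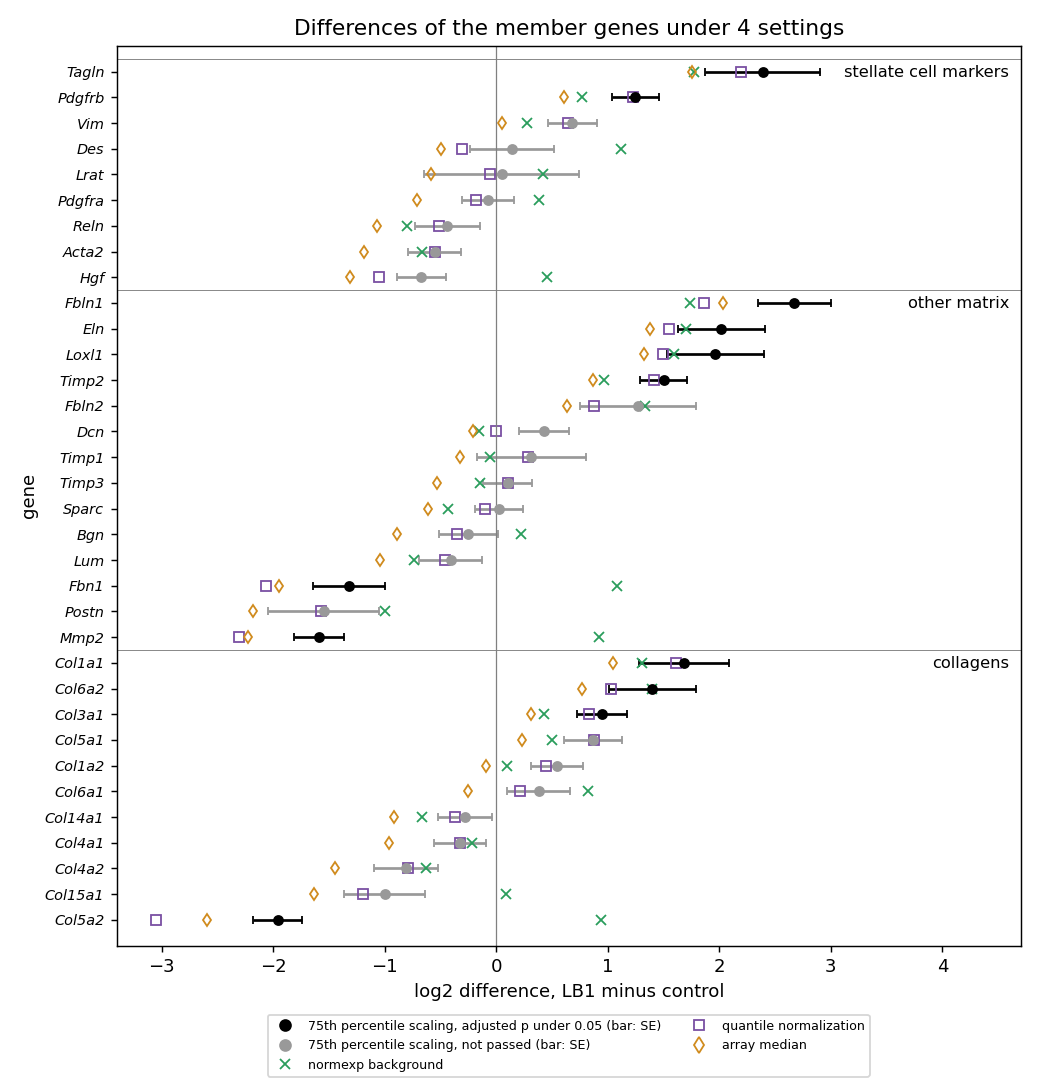
Difference between LB1 and control livers of each tested gene, in log2 units, with the SE of the limma fit for the 75th percentile scaling (circles; black passed, grey did not) and the values with normexp background correction, quantile normalization and array-median scaling. Every gene called higher stays to the right of 0 under all 4 settings, as do Col5a1, Fbln2 and Vim, which were not called. Col5a2, Fbn1 and Mmp2 lie left of 0 except with normexp correction.

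Of the 9 stellate cell markers, all tested, 2 (22.2%) were higher, Pdgfrb and Tagln, and 0 were lower. By the same limma fit, 7 markers did not pass. They included Des, the quiescent cell markers Lrat, Reln and Hgf, and Acta2, the classical marker of the activated cell. The median difference was 0.05 against 0.29 for all genes. It was 0.42 with normexp correction and turned to -0.18 and -0.59 with quantile normalization and array-median scaling. In RNA of whole liver, fewer cells of a type and less RNA per cell cannot be told apart.

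Pdgfrb encodes the receptor for platelet-derived growth factor B, a mitogen of stellate cells. It read 0.61 and 0.54 in control livers and 1.85 and 1.79 in LB1 livers. Arrays of a group lay close together and the groups far apart, with a difference of 1.25 (SE 0.21, limma adjusted p = 0.0230), and of 1.24 and 1.25 within the slides. With array-median scaling it was 0.61 and did not pass (adjusted p = 0.237). Pdgfra, the receptor gene shared with portal fibroblasts, was at -0.07 (SE 0.23, limma adjusted p = 0.819) and turned to 0.38 with normexp correction (adjusted p = 0.0288).

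Tagln, which encodes the smooth muscle protein transgelin, read 2.61 and 1.22 in control livers and 4.55 and 4.05 in LB1 livers. The groups did not overlap, although the control mice differed widely, and the difference was 2.39 (SE 0.51, limma adjusted p = 0.0300). The dimmer Tagln probe shown above read -3.10 and -3.15 in control livers and -3.23 and -3.38 in LB1 livers, with 1 LB1 array well above background and no difference past the test (-0.18, SE 0.21, limma adjusted p = 0.523). The call of Tagln was absent when any 1 of the 4 arrays was left out. The call was also absent with quantile normalization (adjusted p = 0.0528) and for the mean of both probes (1.1, adjusted p = 0.0583). Pdgfrb did not pass without control replicate 1 or without control replicate 2, fits in which hardly any probe of the whole array passed.

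Acta2, the gene of alpha smooth muscle actin, read 1.49 and 1.16 in control livers and 0.86 and 0.70 in LB1 livers at the brightest probe, whose sequence is shown above. The LB1 values lay below the control values, but the difference of -0.55 did not pass (SE 0.24, limma adjusted p = 0.126). Its other tested probe read -3.14 and -3.06 in control livers and -2.72 and -1.48 in LB1 livers, a difference of 1.0 in the other direction (SE 0.44, limma adjusted p = 0.136). Vim, the gene of the intermediate filament vimentin, was at 0.68 (SE 0.22, limma adjusted p = 0.0653) and passed without LB1 replicate 1 (0.0434).

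Des, the desmin gene, read -3.06 and -3.18 in control livers and -2.49 and -3.47 in LB1 livers. Lrat, whose enzyme makes the retinyl esters that stellate cells store, read -0.33 and -1.82 in control livers and -0.29 and -1.76 in LB1 livers at its brightest probe. Both genes had overlapping groups, with differences of 0.14 (SE 0.38, limma adjusted p = 0.786) and 0.05 (SE 0.70, limma adjusted p = 0.961). Des, with 1 LB1 array well above background, passed as higher with normexp correction (1.12, adjusted p = 0.0011) and in the deposited table of mean intensities (0.96, adjusted p = 0.0017). For Lrat the arrays of slide 1 were the higher in each group, and the groups differed by 0.04 and 0.06 within the slides.

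Reln, which encodes the secreted glycoprotein reelin, read 2.32 and 2.24 in control livers and 2.16 and 1.52 in LB1 livers, a difference of -0.44 (SE 0.29, limma adjusted p = 0.276) that passed without LB1 replicate 1 (adjusted p = 0.0439). Hgf, the gene of hepatocyte growth factor, read -2.09 and -2.08 in control livers and -2.86 and -2.65 in LB1 livers at its brightest probe, with no overlap and a difference of -0.67 that did not pass (SE 0.22, limma adjusted p = 0.0681). With normexp correction the difference of Hgf turned to 0.45 (adjusted p = 0.0144). The same probe passed as lower with quantile normalization (-1.05, adjusted p = 0.0478) and with array-median scaling (-1.31, adjusted p = 0.0095). A dimmer probe read -2.92 and -4.48 in control livers and -2.25 and -1.87 in LB1 livers, a difference of 1.64 (SE 0.55, limma adjusted p = 0.0733). The remaining tested probe, shown above, read -3.55 and -3.66 in control livers and -5.59 and -4.26 in LB1 livers, where it was not well above background and no direction can be read.

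**Figure D3:**
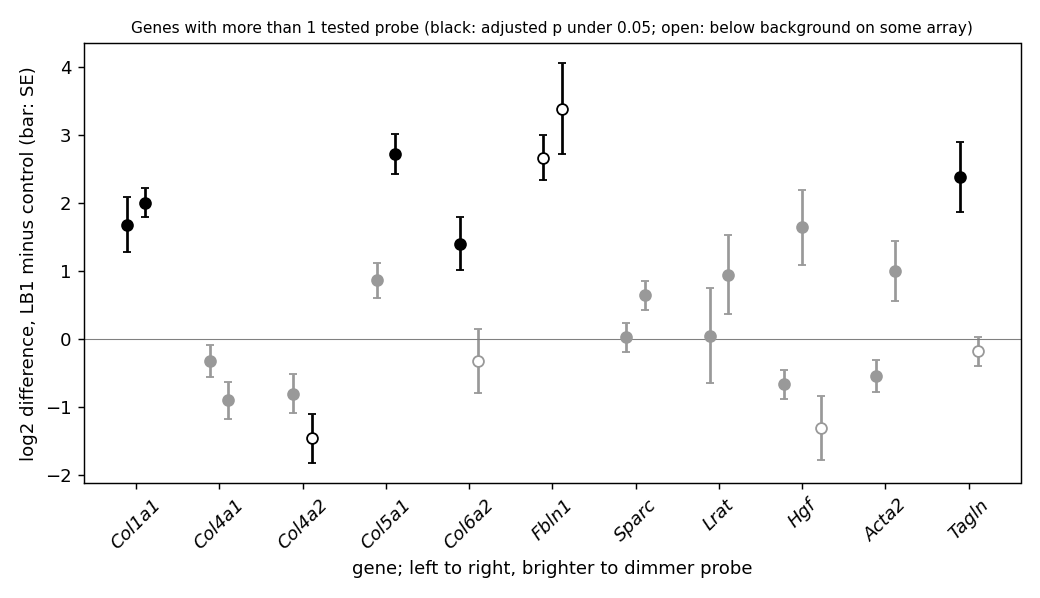
Difference between LB1 and control livers at every tested probe of the 11 genes with more than 1 tested probe, in log2 units with the SE of the limma fit, ordered within a gene from the brighter to the dimmer probe (black passed, open not well above background on at least 1 array). The probes of Acta2, Col6a2, Hgf and Tagln lie on both sides of 0, and the open points of Col6a2 and Hgf, at background on both LB1 arrays, have no readable direction.

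In all, 11 of the 34 genes had more than 1 tested probe, and the fitted differences of 4 of them, Acta2, Col6a2, Hgf and Tagln, were of mixed sign. For Acta2 and Hgf this included probes well above background on all 4 arrays, whereas the negative Col6a2 probe was at background on both LB1 arrays and the negative Tagln probe on 1. With normexp correction the tested probes of Col6a2 (1.40 and 1.39), Hgf (0.45, 1.44 and 1.11) and Tagln (1.78 and 1.05) were all positive, and those of Acta2 (-0.66 and 1.31) were not. Counted over probes, 12 of the 46 were higher and 4 lower, against 19.2% and 13.2% of the 22969 tested probes. Of the 52 probes designed to a RefSeq transcript, 44 were tested, and of the 14 designed to a cDNA clone or another GenBank record, 2 were.

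Each slide held 1 mouse of each group, so the difference could also be read within a slide. Of the 34 genes, 31 had the same sign on both slides. The collagens had median differences of 0.33 and 0.39 on slides 1 and 2, the other matrix genes 0.22 and 0.05, and the stellate cell markers 0.04 and -0.18. With slide as a block, 9 genes were higher and 3 lower, against 20.9% and 8.80% of all genes, and 11 of the 12 calls were kept, that of Col3a1 not.

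**Figure D4:**
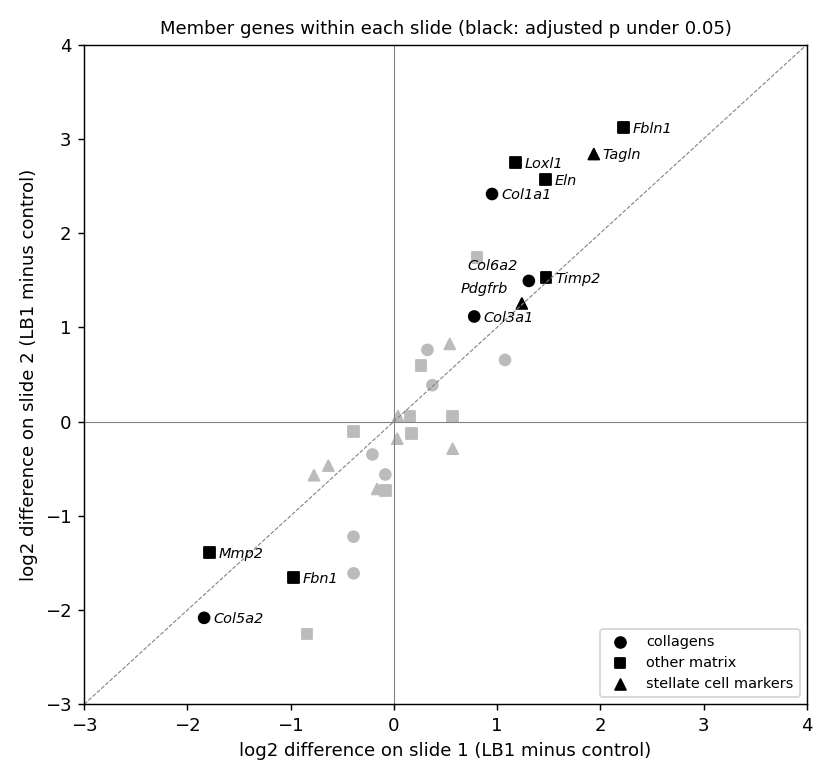
Difference between the LB1 and the control mouse on slide 2 against that on slide 1, in log2 units, for the 34 tested genes (black passed in the fit over all 4 arrays). Timp2 and Pdgfrb lie on the dashed line of equal differences (1.47 and 1.53, and 1.24 and 1.25), whereas Col1a1 differed by 0.95 on slide 1 and 2.42 on slide 2.

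Genes of the surrounding pathways were read from wider lists, whose counts stand beside 21.7% of all tested genes higher and 9.79% lower. Of 22 tested genes of TGF-beta and PDGF signalling, 7 (31.8%) were higher and 3 lower, with a median of 0.44. Both control arrays had 21 of the 22 above background. The other, counted among the 7, was tested through its LB1 signal alone and could enter only as a higher gene. The called genes included Ltbp2, which encodes a latent TGF-beta binding protein (1.64, SE 0.29, limma adjusted p = 0.0239). The growth factor gene Pdgfc was lower (-1.48, SE 0.21, limma adjusted p = 0.0212) but at 0.19 with normexp correction. Of 17 tested genes of collagen modification, 4 (23.5%) were higher and 1 lower, with a median of 0.51. The collagen chaperone gene Serpinh1 was higher by 2.23 (SE 0.30, limma adjusted p = 0.0212), as were the procollagen N-proteinase genes Adamts14 (2.23, limma adjusted p = 0.0217) and Adamts2 (1.17, limma adjusted p = 0.0260).

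Of 28 further collagens and matrix proteins, 9 (32.1%) were higher and 0 lower, with a median of 0.86 that was 0.08 with quantile normalization, against 0.05 for all genes. The laminin gene Lama5 (2.37, SE 0.25, limma adjusted p = 0.0201) and the fibromodulin gene Fmod (2.48, SE 0.33, limma adjusted p = 0.0212) were among them. Col18a1 also passed, but it was saturated on both control arrays and its difference is only an upper limit. Matrix degradation genes numbered 12 tested, 2 (16.7%) higher and 1 lower, with a median of 0.40. Mmp23 (1.34, limma adjusted p = 0.0247) and Plat, the tissue plasminogen activator gene (1.44, limma adjusted p = 0.0406), were higher, but not under quantile normalization (adjusted p = 0.113 and 0.194), and the aggrecanase gene Adamts5 was lower (-1.06, limma adjusted p = 0.0338) but at 0.22 with normexp correction. Of 10 collagen receptor and integrin genes, 3 (30.0%) were higher and 1 lower, with a median of 0.18. The collagen receptor gene Ddr1 was higher by 2.51 (SE 0.42, limma adjusted p = 0.0230) and the integrin gene Itgb5 by 1.17 (SE 0.22, limma adjusted p = 0.0245), which was 0.58 with normexp correction, and the collagen-binding integrin gene Itga1 was lower (-1.06, SE 0.21, limma adjusted p = 0.0268) but at -0.24 with normexp correction (adjusted p = 0.0892).

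Cell type lists were read the same way beside the same shares of all genes, and a gene without a probe past the signal filter was not tested. Of 15 further stellate cell genes, 5 (33.3%) were higher and 0 lower, with a median of 0.50. Of that list, Lhx2 (0.28) and Hand2 (0.50) did not pass (limma adjusted p = 0.458 and 0.244). Of 8 tested portal fibroblast genes, 5 (62.5%) were higher and 0 lower, with a median of 1.76, and their summed level, in multiples of the 75th percentile, was 4.96 and 6.17 in control livers and 9.31 and 12.8 in LB1 livers. Thy1 was higher by 1.74 (SE 0.31, limma adjusted p = 0.0240), Entpd2 was at 0.98 (limma adjusted p = 0.0696) and Gli1 was not tested. Vascular smooth muscle had 1 of 4 tested genes (25.0%) higher, with Myh11 at 1.37 (limma adjusted p = 0.0620) and Cnn1 and Lmod1 not tested. Its summed level was 1.39 and 0.897 in control livers and 1.63 and 1.11 in LB1 livers.

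Of 13 mesothelial genes listed, 9 were tested, but 5 of these were tested through their LB1 signal alone and could enter only as higher genes. The other 4, Msln, Gpm6a, Aldh1a2 and Krt7, were well above background on all 4 arrays and were higher by 6.04, 3.28, 2.01 and 4.69. The summed level of the 9 genes was 1.74 and 0.359 in control livers and 15.2 and 51.6 in LB1 livers, so that LB1 replicate 2 had the most and control replicate 2 the least. Msln, the mesothelin gene, read -0.89 and -4.17 in control livers and 2.65 and 4.37 in LB1 livers (limma adjusted p = 0.0266). Upk3b, at background on 1 control array, did not pass (limma adjusted p = 0.0556), and Upk1b, Wt1 and Bnc1 were not tested. Striated muscle genes were higher in 5 of 9 tested (55.6%) and lower in 0, and their summed level was 1.1 and 0.750 in control livers and 3.99 and 8.31 in LB1 livers, with Ckm, Myh2, Myh4, Tnnt3 and Mb not tested. Acta1, the skeletal muscle actin gene, was at background in both control livers and was tested through its LB1 signal alone. On the scaled values it was at least 6.86-fold higher in LB1 livers (limma adjusted p = 0.0201). The difference of Acta1 was 3.59 there, 1.91 with normexp correction and 2.66 with quantile normalization, so the bound holds for the scaled values only. Actc1 was at 0.84 (limma adjusted p = 0.312). The part of these tissues in the levels of the collagen, elastic fibre and Tagln genes was not tested.

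Genes of the other liver cells were called in both directions. Of 12 sinusoidal endothelial genes, 2 (16.7%) were higher and 2 lower, with a median of -0.37. Stab1 was at 0.82 (limma adjusted p = 0.0482) and at 0.33 with normexp correction (adjusted p = 0.0565), Stab2 at -0.92 (limma adjusted p = 0.0526) and Lyve1 at 0.13 (limma adjusted p = 0.801). Of 12 Kupffer cell genes, 1 (8.33%) was higher and 2 were lower, with a median of -0.29. Clec4f was at 0.64 (limma adjusted p = 0.0721), Cd5l at -0.27 (limma adjusted p = 0.342) and Vsig4 at -1.59 (limma adjusted p = 0.0212). Cholangiocyte genes were higher in 2 of 4 tested and lower in 1, and the 2, Krt19 and Krt7, are also on the mesothelial list, with Krt19 among those tested through LB1 alone. Of 10 tested hepatocyte genes, 5 were saturated on both arrays of at least 1 group. They included Alb and Apoa1, the 2 called higher (20.0%). Alb was saturated on all 4 arrays and Apoa1 on both control arrays, so neither difference has a readable size, and neither call held under quantile normalization (adjusted p = 0.313 and 0.341). The 1 gene called lower was Cps1. Adipocyte genes were called in 0 of 5 and exocrine pancreas genes in 1 of 3.

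**Figure D5:**
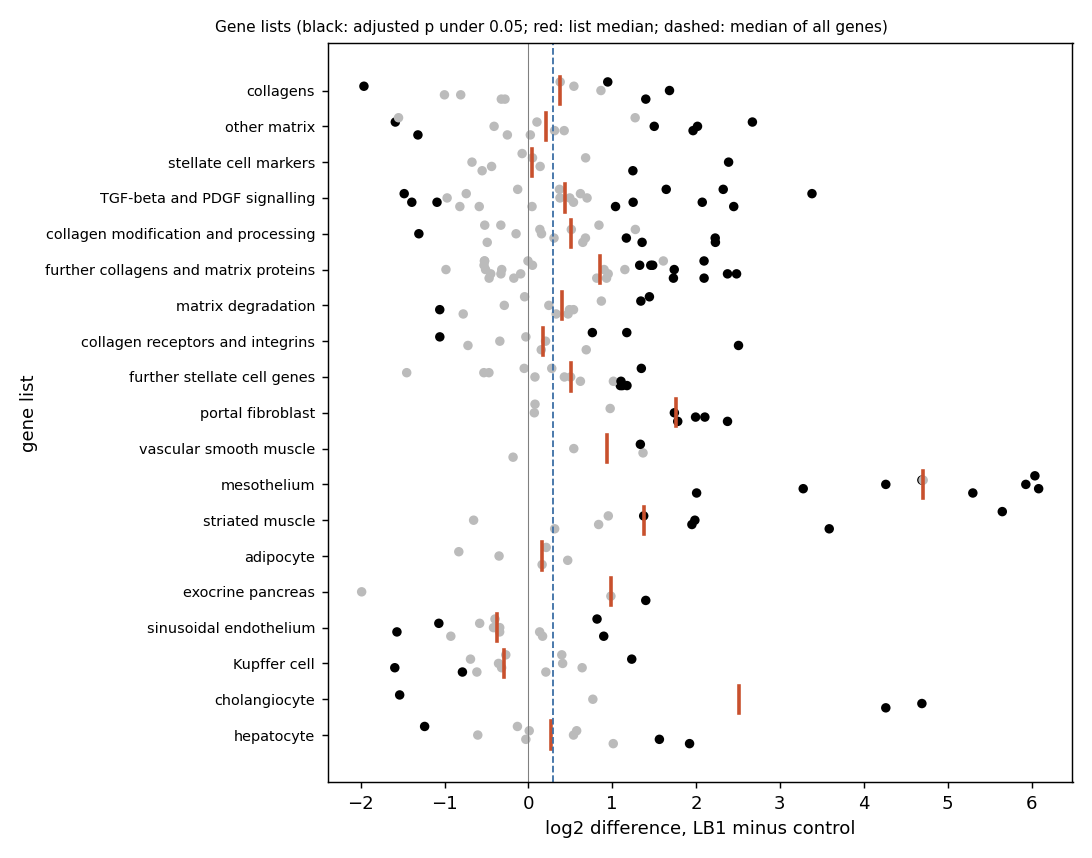
Difference between LB1 and control livers, in log2 units, of each tested gene of the matrix and stellate cell groups, of the wider pathway lists and of the cell type lists (black passed, red bar list median, dashed line the median of all tested genes at 0.29). Mesothelial genes lie to the right of the dashed line, 5 of the 9 having been tested through LB1 signal alone, and the stellate cell markers straddle 0 with a median of 0.05.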

How the data were processed

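Liver RNA (RNeasy kit, per the labels' protocols) of 2 control and 2 LB1 mice was read on 4 arrays. The deposited scanner files hold spot intensity from Feature Extraction 10.5.1.1, per the file headers; the series' design text names another version. The processed signal is background-subtracted and not scaled between arrays, and the deposited table of the whole series is the rounded mean intensity. That table is without background subtraction, and fits on it used log2 values minus each array's 75th percentile. Flagged outlier spots were dropped, and log2 of the processed signal minus each array's 75th percentile over 43379 non-control spots was averaged per probe from the deposited intensity. The 22969 probes that each array of control, of LB1 or of both groups had well above background were compared with limma 3.58.1 in R 4.3.3, and the lists were counted without a list test. Between 20311 and 25861 spots per array were well above background, and the number of arrays limits the precision.

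A probe not well above background in a whole group is given as a bound against the lowest signal well above background. The bound holds for the scaled values only and does not carry over to other processing. The same replicate number meant the same slide and scan, and deviations of same-numbered arrays correlated at 0.151. On simulated data of 22969 probes for this comparison, 0 of 50 changes of 2-fold, 0 of 50 of 4-fold, 17 of 50 of 8-fold and 25 of 50 of 16-fold were recovered, with 0 false calls. Only these probes were changed there, and the spreads were shuffled among probes, whereas 4407 probes passed as higher and 3030 as lower in the data. The adjusted p depends on how many probes change, so these rates do not carry over to the data. Alternatives were normexp correction (offset 50), quantile and array-median scaling, other filters, the slide as a block, trend and robust settings, the deposited table, the methods' t-test, the mean over probes and each array left out.

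Members, lists and settings were chosen with earlier results of these data known. Per-array values are given for genes past the test, genes whose probes disagree and 8 chosen genes. At most 3 called genes with the smallest p are named per pathway list and the first 3 of cell type lists. Further genes of cell type lists are named where a sum, a filter or a call rests on them. Some genes that this rule would name are not reported here. Symbols were checked by accession against RefSeq (GRCm38.p6): 52 of the 66 probes matched, 0 under another symbol. Replicates are separate mice, so their spread holds animal and technical variation.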

Additional observations from a re-analysis of the deposited data

How the results depend on the processing

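Of the 12 calls, 12 were kept with no signal filter, 11 with the replicate block, 11 with trend and robust settings, 10 with the mean over probes, 9 with normexp correction, 9 in the deposited table, 8 with quantile normalization, 8 with array-median scaling, 8 with the filter on all 4 arrays (the other 4 had no value) and 5 by the methods' t-test. Counts are given as higher and lower. Against 3 and 1 collagens, normexp correction gave 6 and 2, array-median scaling 1 and 3, the filter on all 4 arrays 4 and 0, the deposited values 6 and 1 and the methods' t-test 0 and 1. Against 4 and 2 other matrix genes, normexp correction gave 7 and 3, quantile normalization 2 and 2, array-median scaling 3 and 4, the filter on all 4 arrays 3 and 1, the deposited values 7 and 1 and the methods' t-test 2 and 1. Against 2 and 0 stellate cell markers, normexp correction gave 5 and 2, quantile normalization 1 and 1, array-median scaling 1 and 3, the filter on all 4 arrays 3 and 1, the deposited values 3 and 2, the methods' t-test 1 and 0 and the mean over probes 1 and 0. Over all tested probes, against 4407 and 3030, normexp correction gave 11347 and 4643, quantile normalization 2451 and 3969, array-median scaling 1654 and 7125, no filter 17556 and 3127, the deposited values 10689 and 3758, the methods' t-test 2229 and 1884 (0 after Benjamini-Hochberg, 7016 at an unadjusted p under 0.05), and the mean over the probes of a gene 3075 and 1641 genes. Values that changed sign and were past the test in either setting were, with normexp correction, Col5a2 0.94, Fbn1 1.08, Mmp2 0.92, Sparc -0.43, Pdgfra 0.38 and Hgf 0.45, and in the deposited table Col5a2 0.58, Fbn1 0.68 and Mmp2 0.52; the cause was not tested. A further 5 genes changed sign without a call with normexp correction (Col15a1, Dcn, Bgn, Timp1 and Timp3), and 5 in the deposited table (Bgn, Sparc, Timp3, Pdgfra and Hgf). With normexp correction 10 genes without a call passed in the same direction (Col4a2, Col5a1, Col6a1, Col14a1, Lum, Fbln2, Postn, Des, Reln and Acta2). Leaving out each array in turn gave 0 to 3 collagens higher and 0 to 3 lower, 0 to 5 other matrix genes higher and 0 to 4 lower, and 0 to 2 stellate cell markers higher and 0 to 1 lower, with 0 to 6010 probes higher and 1 to 5018 lower overall. The lone mouse left in a group was then assumed to vary like the other group. Hardly any probe of the whole array passed with 1 control array left, so a call lost there is not particular to its gene. Of the 12 calls, 0 were kept without control replicate 1, 0 without control replicate 2, 11 without LB1 replicate 1 and 8 without LB1 replicate 2. With the replicate block, which is also the slide and the scan, 2 collagens were higher and 1 lower, 5 other matrix genes higher and 2 lower, and 2 stellate cell markers higher and 0 lower, with 4189 probes higher and 2769 lower; it ended the call of Col3a1 (0.95, adjusted p = 0.0510) and made one for Fbln2 (1.27, adjusted p = 0.0474). Signal over background limits Col5a2, Fbn1, Mmp2 and Fbln1, which were at background in a whole group.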

Other observations

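Of the 20 probes of matrix and stellate cell genes that were not tested, 15 were well above background on no array and 5 on 1 array only. A cDNA-clone probe of Col1a2 and one of Dcn read above background in control replicate 1 alone (-4.56 and -4.79 on the scaled log2 values), and one of Reln in control replicate 2 alone (-2.88). A cDNA-clone probe of Bgn read -1.78 in LB1 replicate 2 alone, against -5.55 in LB1 replicate 1. A further probe of Acta2 read -3.01 in LB1 replicate 1 alone, against -4.36 in LB1 replicate 2. None of these 5 differences was tested.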
